A study of Homo sapiens with 12 samples.

Results

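The results below concern how far the response to loss of PA200 depends on the cell line it is removed from. All 12 libraries of the series were used, 6 from A549 and 6 from NCI-H1299 (H1299), after joining the 2 deposited count tables on the 59050 gene symbols they share. For each of 22635 genes with enough counts, the knockout effect (knockout over wild type, log2 scale) was estimated in both lines and the A549 effect was subtracted from the H1299 effect. A positive difference therefore means a higher effect in H1299 and a negative one a higher effect in A549. A difference is called at a Benjamini-Hochberg adjusted p under 0.05, and so is an effect within a line.

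A549 is a human lung adenocarcinoma line and NCI-H1299 a human non-small cell lung carcinoma line. Poly-A RNA was sequenced from 4 groups of 3 libraries: wild-type A549, A549 with PA200 knocked out through CRISPR/Cas9, wild-type H1299 and H1299 with the same knockout. No other allele or agent is recorded for any group, and all cells grew for 48 h, A549 from a larger number of plated cells. Nothing in the labels tells if a group's libraries are different knockout clones or repeat cultures. The p-values therefore measure the spread between these libraries, and what belongs to a clone and what belongs to the knockout cannot be told apart.

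PA200, the product of PSME4, is a large nuclear protein that caps the 20S proteasome core and opens its gate without needing ATP. It is known for promoting the breakdown of acetylated core histones during DNA repair and sperm formation, and so has been linked to chromatin and to transcription. A line-by-genotype difference asks whether the same lesion has the same consequence in a different cellular background, here in lines that already differ widely when unedited.

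Total counts ran from 16599401 to 40983933 per library and the A549 genotypes did not overlap, the knockouts being the deeper. CDKN2A, a cell cycle inhibitor gene that A549 is known to have lost, had no count in the 6 A549 libraries and stood between 28.4 and 50.5 CPM (counts scaled to library size and composition) in H1299. Between libraries of a group the spread, as edgeR's common biological coefficient of variation, was 0.206 in A549 and 0.116 in H1299, and 0.167 when shared. Leukocyte markers summed to between 20.1 and 35.3 CPM in A549 and between 66.4 and 94.5 in H1299, with at least 6 of 16 at 0 in every group. Fibroblast and endothelial markers summed to at most 28.3 CPM, with at least 5 of 15 at 0.

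PSME4 itself fell in both lines. In A549 it was at 142, 197 and 195 CPM in the wild-type libraries and at 23.6, 21.1 and 17.1 in the knockouts. In H1299 it was at 258, 218 and 239 and at 49.7, 54.3 and 51.3. No library overlapped, so the label of each holds at the level of the transcript, and the knockouts kept more of it in H1299 than in A549. The log2 effects were -3.11 and -2.20, and the difference of 0.91 (SE 0.20, adjusted p = 0.0277, edgeR quasi-likelihood test) was no longer called after centring within chromosome arms (0.41, adjusted p = 0.23). A count over the whole gene does not show which part was edited.

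The difference between lines was called for 788 of 22635 genes (3.48%), 445 with the higher effect in H1299 (1.97%) and 343 with the higher effect in A549 (1.52%). Of these, 466 differed by at least 2-fold, and the median absolute difference was 1.20 on the log2 scale. The effects lay on opposite sides of zero for 696 of the 788, a share that the contrast itself favours, against 45.3% of all genes tested. Across all genes the median effect was 0.00 in each line. In 379 of the 788 the genotypes did not overlap in either line, as they did not in 6.77% of all genes.

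By which line's effect was called, the 788 genes fell into 5 classes. In 482 only the A549 effect was called, 150 higher and 332 lower in the knockout. In 183 only the H1299 effect was called, 56 higher and 127 lower. In 23 (0.102% of all genes tested) both effects were called in opposite directions, 15 higher in A549 knockout and lower in H1299 knockout and 8 the reverse. PSME4 and the clone-named gene AC016738.1, named after its values were seen, fell in both lines to unequal degrees. The other 98 had no called effect in either line. Across all genes, called or not for the difference, 28 moved one way in both lines, each effect called (0.124%).

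The balance between the one-line classes differed between the joint fit and separate fits of each line, which differ in the spread, the genes that pass the filter and the scaling; the part of each was not tested. With all 12 libraries in 1 fit, 1772 genes were called in A549 (7.83%) and 559 in H1299 (2.47%). Fitted alone, A549 gave 430 calls of 20093 genes (2.14%) and H1299 gave 1786 of 20194 (8.84%), which turns the order of the lines round. With the calls of the separate fits, the 788 genes divided into 178 of A549 only, 283 of H1299 only, 32 opposite, 7 in the same direction and 288 in neither. Of the 482 genes of A549 only, 174 kept that class and 241 were called in neither line. Of the 183 genes of H1299 only, 168 kept theirs.

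Single libraries also moved the count of called differences by more than 1.5 times. It was 1359 without A549 wild-type replicate 3 and 376 without A549 knockout replicate 3, and between 310 and 411 when any of the H1299 libraries was left out. The difference of 232 genes was called with all libraries and in each of the 12 fits that left one out, and those 232 include all 23 genes of the opposite class.

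**Figure D1:**
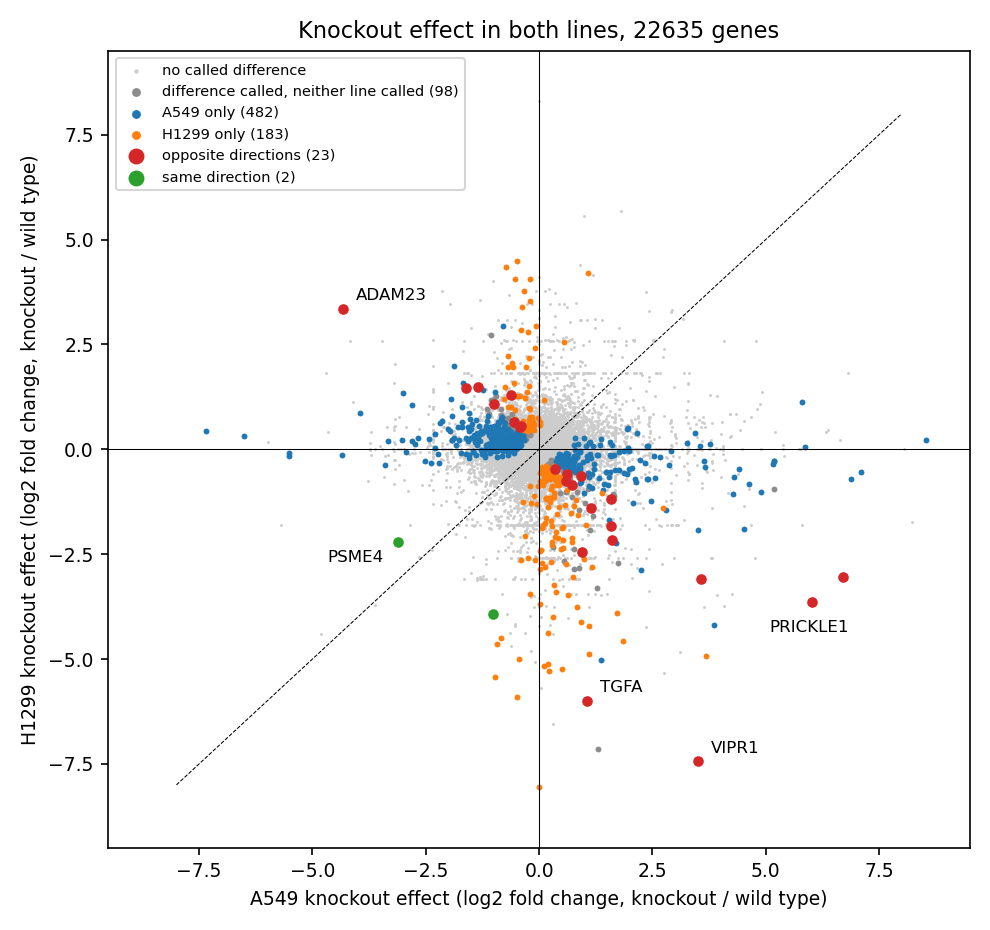
Knockout effect in H1299 (vertical axis, log2 fold change) against that in A549 (horizontal axis, log2 fold change) for each gene tested, coloured by class among the 788 called differences; the dashed line marks equal effects. Called genes spread along the axes (482 A549 only, 183 H1299 only), the 23 opposite genes lie in the upper left and lower right quadrants, some of them close to the origin, and PSME4 lies near the dashed line. Outside the axes fall 2 genes.

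The called differences were unevenly placed in the genome. Chromosome 2 held 204 of the 788 genes (25.9%) against 6.34% of the genes tested, and 193 of the 445 positive differences (43.4%). Over 41 chromosome arms, the median shift of all expressed genes differed between lines for 5 arms (limma, adjusted p under 0.05). In A549 the medians of 2p and 2q shifted by -0.46 and -0.42 in the knockout, and in H1299 by 0.05 and 0.03, so that the differences were 0.50 (SE 0.09, adjusted p = 0.00251) and 0.44 (SE 0.05, adjusted p = 0.000206). On 2q the A549 wild-type libraries stood at 0.109, 0.240 and 0.270 relative to the line mean and the knockouts at -0.193, -0.228 and -0.208, without overlap. Arm 2p, where PSME4 lies, had A549 wild-type libraries at 0.213, 0.240 and 0.247 and knockouts at -0.106, -0.148 and -0.416. ADAM23, TGFA, ADD2, EPAS1, NPAS2 and DOCK10, described below, also lie on chromosome 2. Their differences were still called after arm centring, unlike those of several list members on 2q given below. Arm 1q shifted by 0.03 in A549 and -0.26 in H1299, a difference of -0.29 (adjusted p = 0.00251), and 4p by 0.04 and 0.25, a difference of 0.20 (adjusted p = 0.00251). The largest H1299 shift was that of 4q, 0.36 (limma, adjusted p = 0.00202), with 0.18 in A549. Its difference of 0.17 was not called (adjusted p = 0.216).

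Arm 8q shifted by -0.20 in A549 and 0.23 in H1299, neither called alone, and the difference was 0.43 (SE 0.11, adjusted p = 0.0183). The A549 wild-type libraries were at 0.198, 0.233 and -0.124 on 8q and the knockouts at -0.068, -0.131 and -0.093, so wild-type replicate 3 lay among the knockouts. Of the genes tested on these arms, 11.3% (2p), 16.1% (2q), 10.5% (8q), 5.46% (1q) and 4.4% (4p) had a called difference. After centring every library within arms, 437 genes were called (1.93%), of which 391 were among the 788, and 22 of the 23 opposite genes were among them. Whether the DNA copy number of these arms differs between genotypes was not tested.

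**Figure D2:**
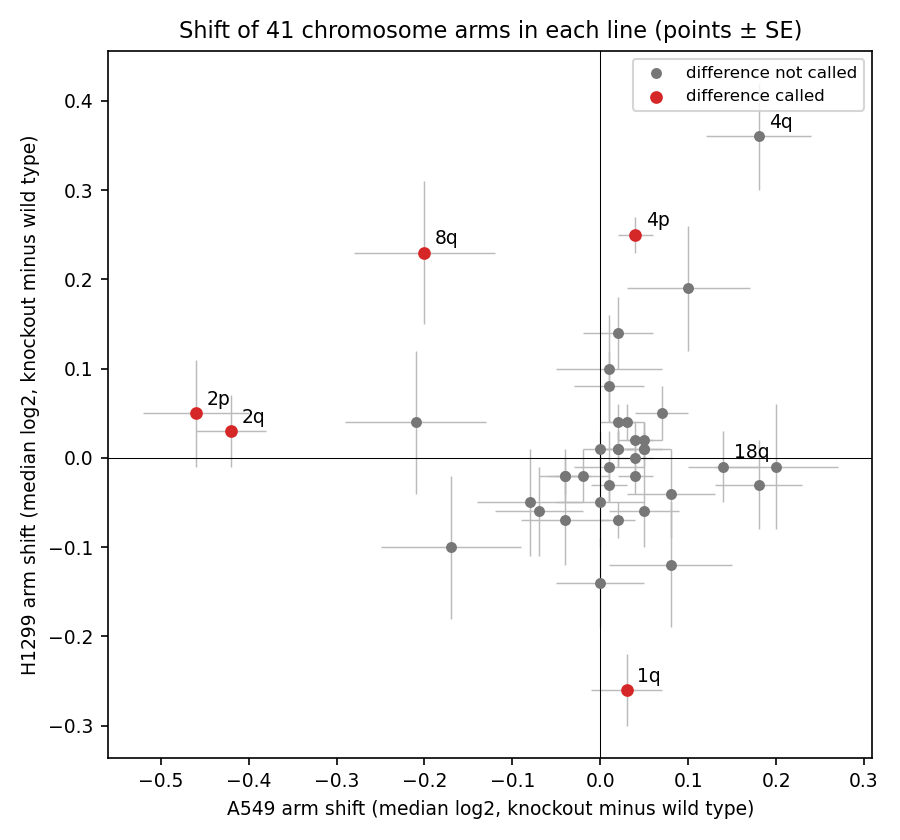
Median shift of each of 41 chromosome arms (log2, knockout minus wild type, ± SE) in A549 (horizontal axis) and in H1299 (vertical axis), with the arms whose shift differed between lines marked. Arms 2p and 2q lie at -0.46 and -0.42 in A549 near zero in H1299, 4p and 1q lie off zero along the H1299 axis, and 8q lies at -0.20 and 0.23. Arm 4q, whose difference was not called, lies at 0.18 in A549 and 0.36 in H1299.

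The opposite class opens with ADAM23, a catalytically inactive member of the ADAM family that binds integrins at the cell surface. Its A549 wild-type libraries were at 20.7, 17.8 and 18.1 CPM and the knockouts at 0.234, 0.973 and 1.54. In H1299 the wild type was at 0.463, 0.430 and 0.356 and the knockouts at 3.63, 7.55 and 1.98. Levels thus crossed over: the line that had the transcript lost most of it and the line that had little gained it, with no overlap in either. The log2 effects were -4.32 (SE 0.52, adjusted p = 0.000822) and 3.35 (SE 0.57, adjusted p = 0.01), and the difference of 7.67 (SE 0.76, adjusted p = 0.000343) held after arm centring (adjusted p = 0.000804).

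TGFA, which encodes the epidermal growth factor receptor ligand TGF-alpha, had overlapping levels in the wild types (log2 difference -0.10, adjusted p = 0.732) and diverged. A549 went from 13.9, 14.4 and 16.8 CPM to 38.1, 31.0 and 24.9. H1299 went from 14, 16.9 and 11.1 CPM to 0.0971, 0.0825 and 0.439. The transcript rose 2.06-fold in one line and fell to 1.53% of wild type in the other. The difference was -7.04 (SE 0.45, adjusted p = 1.01e-05) on the log2 scale.

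Among the other genes that rose in A549 and fell in H1299, ANK1, the ankyrin that ties the spectrin skeleton to the membrane, was at 9.27, 7.80 and 9.63 CPM in A549 wild type and 22.8, 20.3 and 37.5 in the knockout. In H1299 it was at 10.5, 16.1 and 9.64 before and 4.63, 1.28 and 2.10 in the knockout. Its wild types lay close, with 9.63 CPM in A549 and 9.64 in H1299 where they came nearest. Its knockouts lay far apart, and the difference was -3.76 (adjusted p = 0.00339). SMARCA2, the BRM ATPase of the SWI/SNF chromatin remodellers, was at 37.4, 54.8 and 57.2 CPM in A549 wild type and 76.4, 85.4 and 85.4 in the knockout. In H1299 it was at 11, 13.9 and 9.33 in wild type and 5.50, 5.52 and 7.97 in the knockout. Already higher in A549, it moved further from H1299 in both lines (difference -1.58, adjusted p = 0.00995). CCDC9B rose by 0.94 in A549 and fell by 2.45 in H1299 (difference -3.39, adjusted p = 9.92e-05).

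A further set was lower in A549 wild type, and in both lines the knockout moved towards the other line's wild type. CORO2A, a coronin that binds actin, was at 2.96, 1.91 and 3.41 CPM in A549 wild type and 7.54, 7.85 and 9.46 in the knockout. H1299 held 10.1, 15.4 and 9.51 in wild type and 3.66, 6.72 and 5.14 in the knockout, so the lines traded places. TBC1D2, an activator of Rab7 GTPase hydrolysis, lies on 9q with 6358 bases between it and CORO2A. It moved the same way, by 1.59 in A549 and -1.82 in H1299 (difference -3.41, adjusted p = 0.00607), with A549 knockout replicate 3 at 7.04 CPM, just below the highest wild-type library at 7.05. TSPAN1, a tetraspanin, rose from 1.45, 1.42 and 0.896 CPM to 2.88, 3.42 and 2.12 in A549 and fell from 4.53, 3.50 and 4.09 to 1.65, 1.32 and 1.57 in H1299 (difference -2.56, adjusted p = 0.0025). CDKN2C, the p18 inhibitor of CDK4 and CDK6, rose by 0.93 in A549 and fell by 0.64 in H1299 (adjusted p = 0.00346 for the difference).

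GEM, a small Ras-like GTPase, went the other way. It was at 10.3, 7.41 and 8.06 CPM in A549 wild type and 3.82, 4.26 and 4.73 in the knockout, against 7.30, 6.19 and 8.31 in unedited H1299 and 14.6, 15.1 and 16 in its knockout. Wild types overlapped and knockouts were far apart. The difference was 2.07 (SE 0.23, adjusted p = 0.000921), and 1.64 after arm centring, since GEM lies on 8q.

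**Figure D3:**
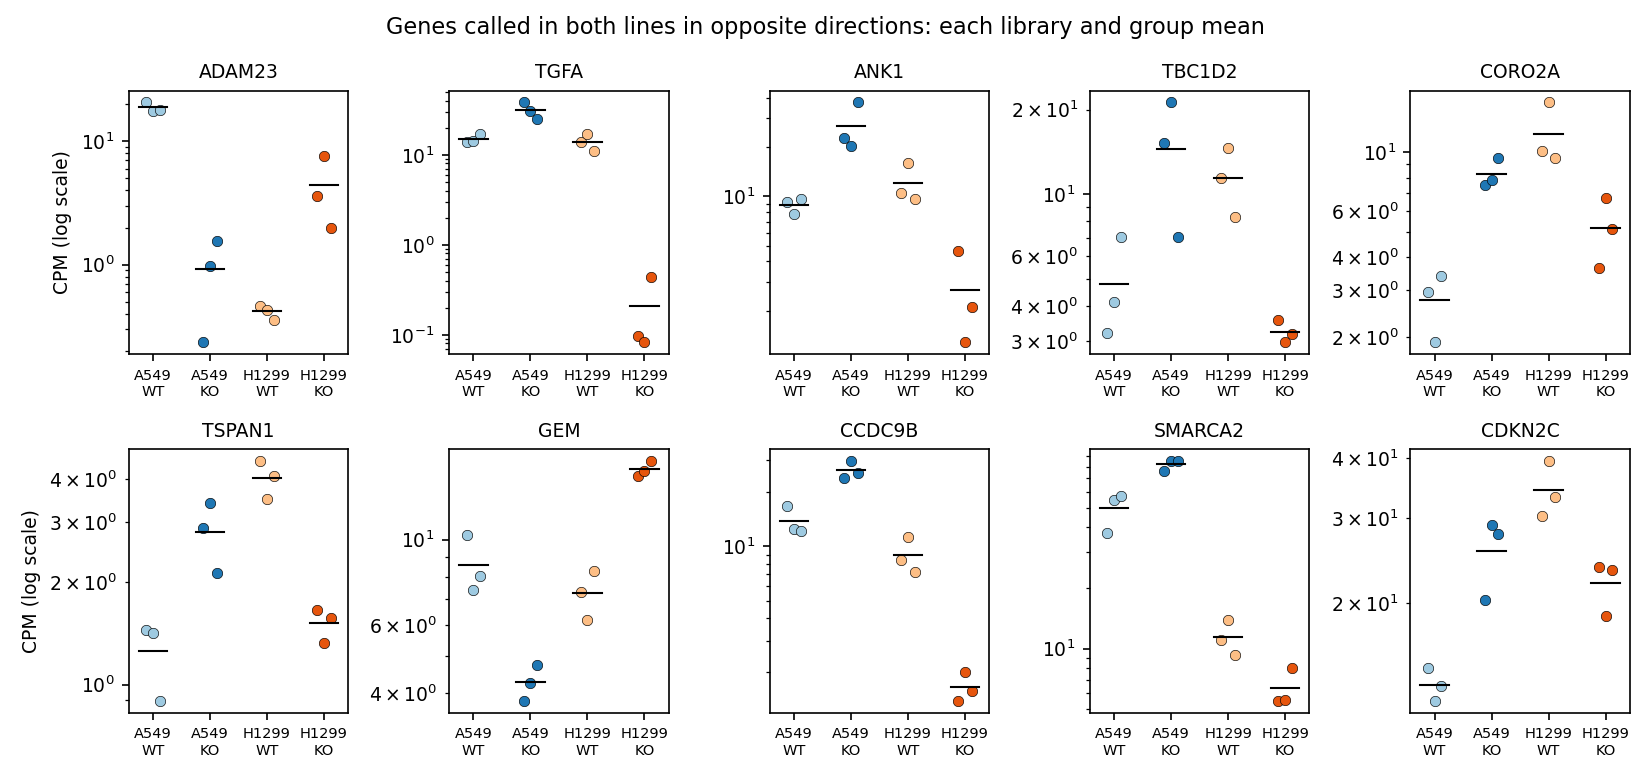
CPM (log axis) of the 10 named genes called in both lines in opposite directions, in every library (points) with group means (bars), for wild type (WT) and knockout (KO). ADAM23 and GEM fall in A549 and rise in H1299, the other 8 rise in A549 and fall in H1299, and of these 10 only TBC1D2 has genotypes that overlap within a line (7.04 and 7.05 CPM in A549).

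The remaining 13 genes of the class fell outside the naming rule, and those given here were chosen after their values were seen. PRICKLE1, a planar cell polarity protein, went from 0.126, 0.245 and 0.224 CPM to 11, 18 and 11.1 in A549, and from 0.925, 1.03 and 0.267 to 0.0971, 0.0412 and 0.0314 in H1299. AC079601.1, which overlaps PRICKLE1 on 12q, showed the same pattern, and reads of overlapping genes may be assigned to either. VIPR1, a receptor for vasoactive intestinal peptide, went from 5 to 107 counts in A549 and from 71 to 0 in H1299, where it was at least 23.3-fold lower taking 3 counts summed over its libraries as the floor. MYC, the proto-oncogene transcription factor, went from 163, 160 and 124 CPM to 122, 105 and 108 in A549 and from 93.1, 92.2 and 85.1 to 127, 135 and 126 in H1299. Its difference of 0.94 (adjusted p = 0.00906) was the one in this class not called after arm centring (adjusted p = 0.0521). The others with the MYC pattern were STON1, SOWAHC, PPP2R2C, TSKU and PIANP, with differences from 0.97 to 3.08. ZBTB18, C5orf66 and RPS6KA5, which encodes the chromatin kinase MSK1, had the reverse pattern with differences from -1.35 to -0.82.

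With separate fits 10 of the 23 genes stayed opposite, 10 were called in H1299 only, 2 in A549 only and 1 in neither. VIPR1, PRICKLE1 and AC079601.1 did not pass the count filter of the H1299 fit and so could not be called there. Genotypes were free of overlap in both lines for 22 of the 23.

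The promoters of 4 opposite genes are shown because these genes changed in both lines in opposite senses. They are reference sequence, not read from either line: the 250 bases upstream of the RefSeq gene start (GRCh38.p14), 5′ to 3′ on the gene's strand, with CG dinucleotides, the substrate of DNA methylation, in capitals. Positions are chr2:206443282-206443531 (plus strand) for ADAM23, chr9:98255650-98255899 (minus) for TBC1D2, chr9:98192638-98192887 (minus) for CORO2A and chr1:46174837-46175086 (plus) for TSPAN1.
ADAM23: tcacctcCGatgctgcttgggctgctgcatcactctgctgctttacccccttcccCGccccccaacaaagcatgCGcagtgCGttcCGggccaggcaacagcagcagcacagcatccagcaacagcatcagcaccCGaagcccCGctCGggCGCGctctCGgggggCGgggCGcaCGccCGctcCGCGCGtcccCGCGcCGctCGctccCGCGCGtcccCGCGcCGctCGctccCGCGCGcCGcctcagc
TBC1D2: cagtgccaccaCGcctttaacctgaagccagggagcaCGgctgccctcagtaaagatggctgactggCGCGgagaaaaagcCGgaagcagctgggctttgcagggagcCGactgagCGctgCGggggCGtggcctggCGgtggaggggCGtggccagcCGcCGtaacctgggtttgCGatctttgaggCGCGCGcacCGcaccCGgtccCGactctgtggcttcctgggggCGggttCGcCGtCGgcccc
CORO2A: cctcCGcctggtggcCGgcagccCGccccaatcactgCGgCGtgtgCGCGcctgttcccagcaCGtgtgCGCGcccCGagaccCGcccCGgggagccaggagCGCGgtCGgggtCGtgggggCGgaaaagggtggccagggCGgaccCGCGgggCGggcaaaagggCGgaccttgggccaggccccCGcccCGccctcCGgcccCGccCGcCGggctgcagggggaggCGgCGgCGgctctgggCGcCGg
TSPAN1: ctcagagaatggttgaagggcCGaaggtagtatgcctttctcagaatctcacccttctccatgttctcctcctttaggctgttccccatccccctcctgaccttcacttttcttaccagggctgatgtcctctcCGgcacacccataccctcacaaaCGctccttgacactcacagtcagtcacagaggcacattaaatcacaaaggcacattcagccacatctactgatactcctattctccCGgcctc
ADAM23, TBC1D2 and CORO2A hold 33, 24 and 34 CG dinucleotides and TSPAN1 holds 4. The table gave a promoter for 16 of the 23 opposite genes, and 12 of the 16 (75%) held at least 10 CG, against 80.8% of 12000 tested genes with a promoter. Methylation was not measured here.

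Genes that responded in A549 only included several that were present in both wild types and fell in A549. ANGPTL4, a secreted inhibitor of lipoprotein lipase, was at 24.3, 13.6 and 15.2 CPM in A549 wild type and 2.01, 3.76 and 1.84 in the knockout. In H1299 it was at 16, 7.42 and 13 in wild type and 15.6, 11.2 and 14.5 in the knockout. Wild types overlapped and only the A549 knockouts stood apart (difference 3, SE 0.46, adjusted p = 0.00603). LAMC3, a laminin gamma chain of basement membranes, went from 6.18, 6.04 and 2.85 CPM to 0.469, 0.905 and 0.498 in A549, and was at 9.05, 12 and 7.20 against 13, 9.52 and 10.7 in H1299 (difference 3.24, adjusted p = 0.00339). ACOX2, a peroxisomal oxidase of bile acid precursors, fell by 2.68 in A549 with an effect of 0.28 in H1299. PTPRN2, a receptor-type phosphatase of secretory granules, fell by 4.35, with -0.13 in H1299.

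Other members of this class rose from near silence in A549 to a level still below that of H1299 wild type. BNC1, the zinc finger protein basonuclin, had no count in A549 wild type and stood at 0.770, 2.75 and 1.54 CPM in the knockout, at least 30.5-fold higher. H1299 held 19.6, 25.4 and 15.4 CPM in wild type and 16.4, 26.8 and 27.3 in the knockout, overlapping. CPE, a carboxypeptidase that trims prohormones, went from 4 to 492 counts in A549 and was between 10.5 and 13 CPM in all 6 H1299 libraries (difference -5.82, adjusted p = 0.0169). GRAMD2B went from 0.063, 0.0982 and 0.224 CPM to 0.737, 7.45 and 3.76 in A549. Its H1299 libraries were at 12.1, 12.7 and 11.2 in wild type and 6.25, 6.51 and 5.11 in the knockout, which was called in the fit of H1299 alone but not in the 12-library fit. TRHDE, a peptidase of thyrotropin-releasing hormone, had no count in A549 wild type and at least 9.86-fold more in the knockout, with a knockout library at 0.0335 CPM. H1299 was at 38, 38.5 and 33.3 CPM in wild type and 20.5, 19.3 and 26.9 in the knockout, without overlap, which was called in the fit of H1299 alone (adjusted p = 0.012). Its difference was not called after arm centring (adjusted p = 0.0571).

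Genes of H1299 only moved over a wide range. ADD2, beta-adducin, which caps actin at the membrane skeleton, was at 0.760, 1.38 and 0.489 CPM in H1299 wild type and 18.7, 20.9 and 21.8 in the knockout. In A549 it was at 109, 132 and 138 in wild type and 91.6, 93.2 and 85.9 in the knockout, an effect of -0.49 that was not called. The difference was 4.96 (SE 0.29, adjusted p = 4.84e-06). DOCK10, a guanine nucleotide exchange factor, rose from 10.3, 3.93 and 4.98 CPM to 32.3, 24.6 and 33.4 in H1299 (difference 2.91, adjusted p = 0.00239). GJA1, connexin 43, rose there by 3.40 but stayed low, from 0.0991, 0 and 0.267 CPM to 1.13, 1.03 and 1.22. Every A549 library held at least 151 CPM of GJA1. NID1, the basement membrane linker nidogen-1, stood at 0.132, 0.0573 and 0.000 CPM in H1299 wild type and 1.23, 0.660 and 1.03 in the knockout.

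EPAS1, which encodes the hypoxia-inducible factor HIF-2alpha, fell in H1299. It was at 15.5, 19.9 and 12.5 CPM in H1299 wild type and 0.194, 0.206 and 0.376 in the knockout, and at 113, 164 and 168 against 120, 112 and 84.9 in A549. The H1299 genotypes were far apart and the A549 genotypes overlapped (difference -5.41, SE 0.38, adjusted p = 2.21e-05). NPAS2, a circadian clock transcription factor, went from 101, 112 and 83.8 CPM to 4.47, 1.90 and 6.43 in H1299 and from 119, 126 and 126 to 70.6, 63.6 and 73.2 in A549. Its A549 effect of -0.84 missed the threshold in the shared fit (adjusted p = 0.0557) and was called when A549 was fitted alone. CCNJL, a cyclin J-like gene, fell by 5.01 in H1299, EPS8, an actin-capping signalling adaptor, by 3.75, and MYO5B, a vesicle motor, by 3.41. THBS1, the matrix glycoprotein thrombospondin-1, was at 19.7, 153 and 14.2 CPM in H1299 wild type, where replicate 2 stood far above the others, and at 7.09, 0.742 and 2.01 in the knockout. In A549 it was at 51.3, 65.9 and 88.9 against 151, 121 and 171, without overlap, an effect called when A549 was fitted alone (adjusted p = 0.0489) but not in the 12-library fit.

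Among 44 functional lists of 1328 genes, 37 lists held at least 1 called difference, 89 genes in all, and 15 held 3 or more. List members are given as counts beside the 3.48% of all genes, and as medians beside the all-gene median difference of -0.01. The extracellular matrix and basement membrane list had the most, 8 of 42 tested (19%), 6 of them negative, with a median difference of -0.45 (0.19 in A549, -0.26 in H1299). In H1299, LAMB1, a laminin beta chain, fell from 10.7, 9.97 and 5.56 CPM to 2.07, 2.76 and 3.04 while A549 held between 473 and 570 CPM in all libraries (difference -1.87, adjusted p = 0.00534). COL13A1, a transmembrane collagen, fell from a mean of 17.6 to 1.14 CPM in H1299, where FBLN2, an elastic fibre protein, fell by 3.99 on the log2 scale. NID2, nidogen-2, and LOX, the collagen crosslinking oxidase, were called in A549 only and rose there, although the LOX difference was not called after arm centring (adjusted p = 0.0623). NID1 and LAMC3 made up the positive differences.

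Of 25 epithelial genes tested, 3 had a called difference (12%), all keratins with a lower effect in H1299, and the list's median effect was 0.34 in A549 and -0.60 in H1299. KRT80 was at 18.5, 35.2 and 19.7 CPM in H1299 wild type and 6.57, 4.62 and 5.14 in the knockout, and at 124, 129 and 136 against 213, 140 and 207 in A549 (difference -2.69, SE 0.33, adjusted p = 0.00174). KRT8 and KRT18, the keratin pair of simple epithelia, had differences of -1.37 and -1.27 with adjusted p of 0.0456 and 0.0463. Both were lost after arm centring (adjusted p = 0.0755 and 0.0801). In A549 wild-type replicate 3 KRT8 and KRT18 were at 1384 and 1136 CPM, against 2271 to 2468 and 1891 to 2319 in the other two. The integrin list gave 2 of 20, with a median effect of -0.06 in A549 and 0.15 in H1299. There 2 members rose and 4 fell, beside 2.47% of all genes with a called H1299 effect in either direction. Its called subunits ITGB4, of hemidesmosomes, and ITGA3, a laminin receptor chain, fell in H1299 by 1.57 and 1.31, with effects of 0.85 and -0.05 in A549.

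Mesenchymal genes gave 3 of 21. CD44, a hyaluronan receptor, rose from 464, 564 and 348 CPM to 752, 747 and 804 in A549 and was at 462, 407 and 387 against 286, 358 and 338 in H1299, without overlap in either line (difference -1.10, adjusted p = 0.0166). AXL, a receptor tyrosine kinase, rose in A549 by 0.68, with -0.44 in H1299, and its difference was not called after arm centring (adjusted p = 0.0766). SNAI1, a repressor of epithelial genes, went the other way, falling by 1.13 in A549, with 0.50 in H1299 (adjusted p = 0.0194).

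NRF2 targets, the antioxidant and NADPH-supplying genes under the factor NRF2 that A549 is known to hold active through mutated KEAP1, gave 4 of 29 (13.8%), all positive. In A549, 11 of 29 fell and none rose, with a median effect of -0.44, and in H1299 1 rose and none fell, with a median of -0.05. Of all genes, 7.83% had a called effect in A549 and 2.47% in H1299, either direction. SRXN1, sulfiredoxin, was at 508, 509 and 406 CPM in A549 wild type and 294, 267 and 287 in the knockout, and at 131, 102 and 124 against 136, 146 and 154 in H1299 (difference 1.04, SE 0.17, adjusted p = 0.00772). GSR, glutathione reductase, went from 538, 572 and 420 to 299, 293 and 295 CPM in A549 (difference 0.90, adjusted p = 0.00993). PGD, of the pentose phosphate pathway, fell by 0.48 in A549, and UGDH rose by 0.59 in H1299 with 0.01 in A549. Fitted alone, A549 gave 4 falls rather than 11, in a fit that called 2.14% of all genes. After arm centring 2 of the list's differences were called, those of PGD and UGDH not (adjusted p = 0.0595 and 0.185).

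The hypoxia and glycolysis list gave 6 of 33 (18.2%). ANGPTL4, the adrenomedullin gene ADM, PDK1 and the demethylase gene KDM3A fell in A549 only. EPAS1 and PLOD2, a collagen lysyl hydroxylase gene, fell in H1299 only. After arm centring 3 of the 6 were called, and KDM3A, PDK1 and PLOD2 were not (adjusted p = 0.994, 0.15 and 0.0507). MAPK output genes gave 3 of 23, all positive: MYC, DUSP5, an ERK phosphatase, and ETV4, an ETS factor. DUSP5 went from 177, 133 and 128 CPM to 63.7, 79.1 and 59.2 in A549 and was at 32.5, 19.1 and 22.7 against 26, 25.7 and 29.6 in H1299 (difference 1.25, adjusted p = 0.0244).

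Planar polarity and Notch genes gave 4 of 25. PTK7, a polarity co-receptor, fell by 1.62 in A549 with 0.27 in H1299, HES1, a Notch target, rose by 1.22 with -0.35, and ROR1, a Wnt5a receptor, fell by 1.15 in H1299 with 0.16 in A549. The Wnt list gave 3 of 30. SFRP1, a secreted Wnt inhibitor, fell by 5.43 in H1299, where its wild-type libraries were spread at 21, 64.3 and 12.8 CPM. In A549 it also fell, from 97.3, 117 and 89.6 CPM to 64, 48.9 and 41.6, without overlap. That A549 effect of -0.98 was called when A549 was fitted alone (adjusted p = 0.0432) but not in the joint fit (adjusted p = 0.234). DKK1, another inhibitor, fell from 479, 532 and 417 to 369, 228 and 210 CPM in A549 and was at 14.5, 13.1 and 10.4 against 25.7, 17.2 and 21.8 in H1299 (difference 1.59, adjusted p = 0.0157).

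Drug and anion transporters gave 4 of 20. ABCG2, an efflux pump, went from 129, 126 and 105 CPM to 79.9, 58.4 and 69.5 in A549 and from 0.0661, 0 and 0.0889 to 0.162, 0.660 and 0.376 in H1299, 4 and 33 counts. The difference of 3.74 (adjusted p = 0.0175) comprised -0.79 in A549 and 2.94 in H1299, the latter not called. SLCO1B3, an uptake carrier, was at 1.39, 0.430 and 0 CPM in H1299 wild type and at 0 in every knockout, so the genotypes overlapped, while A549 was at 21.2, 29.2 and 29.6 CPM in wild type and 70.7, 50.8 and 74.3 in the knockout. Neither effect was called in the 12-library fit, and the A549 effect was called when A549 was fitted alone (adjusted p = 0.0261). Cytokines, chemokines and NF-kappaB targets gave 4 of 23, 2 in each sense. LIF, a cytokine of the interleukin-6 family, fell by 0.76 in H1299 with 0.02 in A549, and IL32 rose by 0.98 in A549 with -1.05 in H1299. NFKB2 and NFKBIA, of the NF-kappaB pathway, fell in A549 by 0.87 and 0.67, with 0.37 and 0.29 in H1299, and neither difference was called after arm centring (adjusted p = 0.0625 and 0.0555), nor was that of LIF (adjusted p = 0.0563).

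Genes of the proteasome and of histone acetylation had called differences at about the share of all genes (3.48%). Among 31 genes of the 20S core and 19S regulator, 1 had one (3.23%), PSMD14, the deubiquitinase of the 19S lid. It lies on 2q and its difference went from 0.67 (adjusted p = 0.0162) to 0.23 (adjusted p = 0.406) after arm centring. Of 36 acetylation enzymes and readers, 1 was called (2.78%), HAT1, a histone acetyltransferase also on 2q, from 0.55 to 0.10 after centring. Of 21 histone genes tested, 2 had a called difference (9.52%), and the list's median difference was -0.45 (0.18 in A549, -0.35 in H1299). Effects were below 0 for 5 of the 21 in A549 and for 18 in H1299, called or not. H2AFY, the variant macroH2A1, was at 189, 189 and 203 CPM against 249, 235 and 240 in A549 and at 237, 196 and 218 against 166, 154 and 172 in H1299. The groups did not overlap in either line, and the difference of -0.72 was called (adjusted p = 0.0122), the H1299 fall with it and the A549 effect not (adjusted p = 0.0532). H3F3A, a gene of the replacement histone H3.3 on 1q, fell in H1299 by 0.54, and its difference was not called after arm centring (adjusted p = 0.233).

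Several further list members on 2q lost their call in the same way: MCM6, of the replicative helicase, the mitochondrial chaperone pair HSPD1 and HSPE1, ATP5MC3, PDK1 and ATG16L1.

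Whether knockout brought a line nearer to the other was asked over the 8817 genes whose wild types differed by at least 2-fold with an adjusted p under 0.05 (39% of genes tested). A gene counted as moved towards the other line when its knockout mean lay closer than its wild-type mean to the other line's wild-type mean, in log2 CPM. Of 820 such genes called in A549, 472 (57.6%) moved towards H1299 and 348 away. Of 305 called in H1299, 155 (50.8%) moved towards A549 and 150 away. Exact 95% binomial intervals were 54.1 to 61% and 45.1 to 56.6%, which treat genes as independent and cover counting only. Over all 8817 genes, called or not, the shares were 55.2% and 47.8%, close to those of the called genes. Among genes also called for the difference, 134 of 199 (67.3%) moved towards in A549 and 58 of 112 (51.8%) in H1299.

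The towards share depends on how the genes are chosen. A line's wild-type libraries enter both the choice and the distance. When genes were chosen by a line difference averaged over genotypes, the shares fell to 41.2% in A549 and 37.4% in H1299, on the other side of 50%. They were 53.6% and 55.9% with wild types at least 4-fold apart. No direction of movement is therefore drawn for either line.

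By library, none of the groups came closer. The root mean square distance over all genes to the other line's wild-type mean was 2.161, 2.111 and 2.119 log2 units for A549 wild type and 2.158, 2.142 and 2.176 for A549 knockout, which overlap (exact permutation test, two-sided p = 0.3). It was 2.117, 2.076 and 2.134 for H1299 wild type and 2.143, 2.164 and 2.142 for H1299 knockout. There every knockout was farther from A549 than every wild type, by 0.041 on average (exact permutation p = 0.1, the smallest that 3 against 3 libraries allow).

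**Figure D4:**
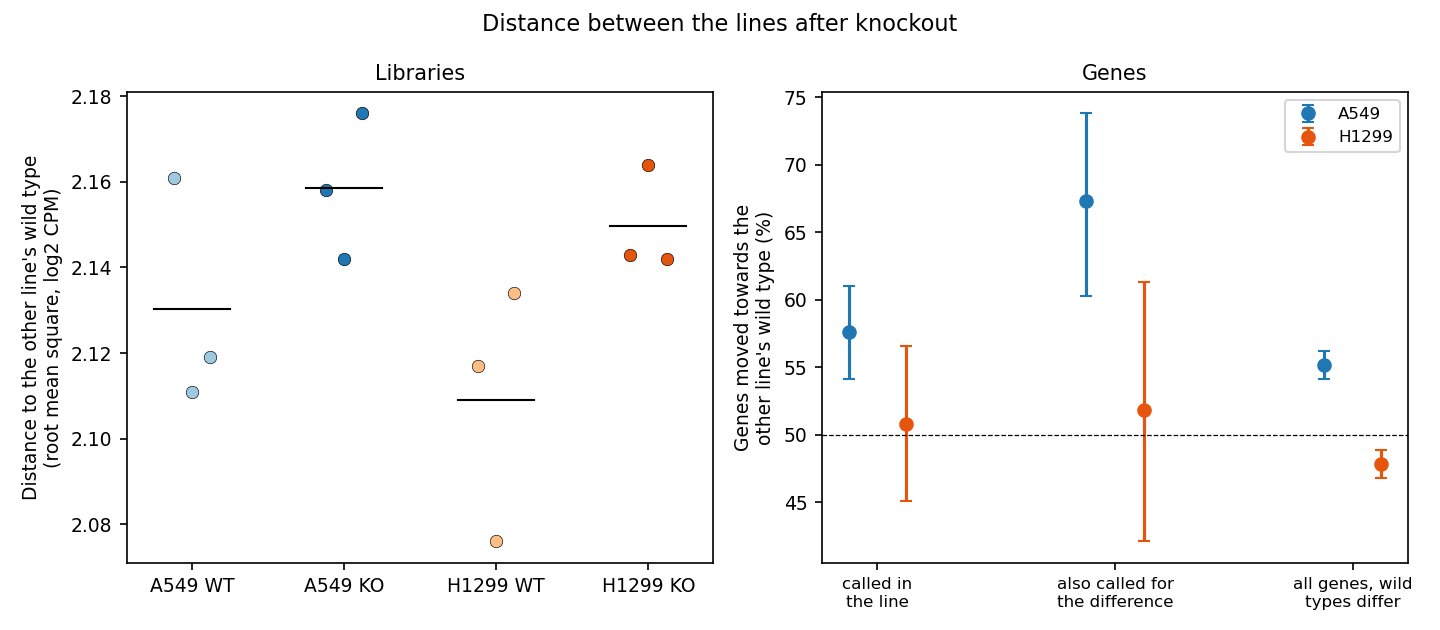
Left, distance of each library to the mean of the other line's wild type (root mean square over genes, log2 CPM; bars are group means, the axis does not start at 0); right, share of genes that moved towards the other line's wild type (%, with exact 95% binomial intervals) for 3 sets of genes. H1299 knockouts (2.142 to 2.164) lie above their wild types (2.076 to 2.134), A549 genotypes overlap, and the shares for all genes whose wild types differ (55.2% and 47.8%) lie inside the intervals of the genes called in each line. Those 2 all-gene shares are lowered by genes with an effect of 0, counted almost wholly as away.

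Of the 334 genes with a called difference whose wild types differ, the distance between the lines narrowed from wild types to knockouts for 190 (56.9%, against 54.7% of all genes whose wild types differ) and widened for 144. The gap closed to under 2-fold for 99 of the 334, against 1374 of the 8817 genes whose wild types differ. For 19 the order of the lines turned round by at least 2-fold on both sides, against 25 of the 8817. Among all 788, the lines came to differ by 2-fold or more at 201 genes where the wild types did not. The same held at 1736 of the 22635 genes tested. Choosing genes by a called difference itself favours such changes. Of the 23 opposite genes, 14 moved towards the other wild type in both lines, 7 moved away in both, and 2 moved away in A549 and towards in H1299.

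The genes below had the largest changes in distance by the naming rule. Besides ADAM23, BNC1, CPE and GRAMD2B, A549 approached H1299 at RSPO3, a secreted enhancer of Wnt signalling, which fell from 163, 261 and 199 CPM to 28.2, 6.07 and 22.3 and had no count in H1299 wild type. GABRQ, a GABA receptor subunit, rose by 3.46 towards H1299 levels between 5.3 and 8.29 CPM. For neither was the difference between lines called (adjusted p = 0.559 and 0.0778). H1299 approached A549 at ADD2, ADAM23, NID1, EYA4, COL4A5 and TMEM156. TMEM156 went from 9.15, 1.58 and 3.78 CPM to 36.9, 35.1 and 32.6 beside 38.8, 35.9 and 32.7 in A549 wild type. EYA4, a transcriptional coactivator, rose by 2.68 and COL4A5, a collagen IV chain, by 2.49, without a called difference between lines (adjusted p = 0.132 and 0.226).

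Away from H1299, A549 moved at VCAN, the proteoglycan versican, where wild-type replicate 3 was at 38.6 CPM and the others at 0.315 and 0.0982, and the knockouts at 428, 663 and 53.6. DIO2, a thyroid hormone deiodinase, went from 1.70, 5.2 and 11.3 to 61.6, 55.0 and 77.6 CPM, THBD, thrombomodulin, rose by 2.47 and KRT19, another keratin of simple epithelia, by 2.16, all 3 with at most 0.267 CPM in H1299. The difference between lines was not called for VCAN, DIO2, THBD or KRT19 (adjusted p from 0.27 to 0.695). SUSD5 fell by 2.43 in A549, where it was already lower (difference 2.67, adjusted p = 0.00025). H1299 moved away from A549 at EPAS1, SFRP1, CHST15, CCNJL, SYNPO, an actin-bundling protein that fell by 3.46, and MYO5B.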

How the data were processed

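RNA-seq gene counts deposited by the authors, 6 libraries in each line's table, are raw whole numbers. Per the labels' protocols, a stranded kit selecting poly-A RNA was used on 1 µg per sample. The submitters' processing notes list bcl2fastq 2.20.0.422 and GRCm38.p6, which is a mouse assembly, whereas symbols are human. Aligner and counting program: not given in the sources used here. The 37 mitochondrially encoded rows hold 0.

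Symbols were matched to GENCODE 29 (GRCh38), 95.1% once. The 12 libraries were fitted together in R 4.3.3 with edgeR 4.0.16: filterByExpr (minimum count 10), TMM, quasi-likelihood test on 4 group means, Benjamini-Hochberg adjustment. CPM is TMM-scaled, and distances use a prior count of 2. Arms of at least 30 genes were compared with limma 3.58.1 on each library's median deviation from the gene's line mean. A gene is called when the adjusted p is under 0.05. Bounds take 3 counts summed over a group's libraries as the floor and cover counting error only, as do intervals. The method was tested on simulated data that gave both lines the same spread, unlike these data.

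The members, lists and the rule for named genes were chosen with earlier results of these data known. Requiring a log2 CPM averaging 1 or more, without clone-based, LOC, LINC or antisense names, the rule took the 12 largest differences each way, 10 opposite genes by the smaller effect, 3 called members per list, 6 per line and direction for the change in distance, 6 that moved one way in both lines, PSME4 and switch genes. Other genes named were chosen after their values were seen. Of 1328 list genes 1324 were found, and PER1, SIRT6, H2AC18 and H3C2 were not analysed here. Alternatives were RLE, no TMM scaling, other filters, DESeq2 1.42.0, limma-voom with and without quality weights, stricter thresholds, thinning, arm centring, removal of chromosome 2, separate fits and each library left out.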

Additional observations from a re-analysis of the deposited data

Results flagged for a closer look

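Each of these results was flagged because the knockout effect differed between the lines by a test of the difference itself (edgeR for genes, limma for arms), and none is explained here. The number of genes whose knockout effect differed was 788. Among genes called in both lines in opposite directions, the log2 difference, H1299 minus A549, was 7.67 for ADAM23, -7.04 for TGFA, -3.76 for ANK1, -3.41 for TBC1D2, -2.77 for CORO2A and -2.56 for TSPAN1. For GEM it was 2.07, for CCDC9B -3.39, for SMARCA2 -1.58 and for CDKN2C -1.58. The median shift of a chromosome arm differed between lines by -0.29 on 1q, 0.50 on 2p, 0.44 on 2q, 0.20 on 4p and 0.43 on 8q.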

How the results depend on the processing

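Counts of called genes moved with the settings. Without a low-count filter there were 1239 called differences, 934 effects in H1299, 315 genes of H1299 only, 66 opposite and 161 list members (89 in the report). DESeq2 gave 1706, 1262 in H1299, 929 of A549 only, 436 of H1299 only, 100 opposite and 184 list members. Limma-voom gave 40 opposite, and with quality weights (A549 wild-type replicate 1 at 0.285) 1594 differences, 2235 effects in H1299, 810 of A549 only, 477 of H1299 only, 128 opposite, 147 list members and 52.2% towards in A549. An adjusted p under 0.01 gave 140, 541 (A549), 118 (H1299), 79, 38, 2 and 27. A 2-fold minimum gave 466, 718, 285, 191, 110 and 13, and 52.7% towards in A549. Arm centring gave 437, 1160, 356, 242 and 113, removal of chromosome 2 gave 494, 1043 (A549) and 251 (A549 only), and separate fits 430, 1786, 178 and 283. Towards shares were 53.6% in A549 with wild types 4-fold apart, and 41.2% and 37.4% with genes chosen by the average line difference. With up to 10 counts allowed, 20 switch genes replaced 5. Leaving out 1 library gave 310 to 1359 differences, 878 to 3185 effects in A549, 142 to 1115 in H1299, 200 to 939 genes of A549 only, 58 to 317 of H1299 only, 6 to 51 opposite, 45 to 135 list members, 51.5 to 65.6% and 44.5 to 57.1% towards and 4 to 10 arms, the most arms without A549 wild-type replicate 3. Of 102 named genes with a called difference, 40 kept it under every alternative and none changed sign, with 410 of 2428 single results losing the call. The cause of these moves was not tested. No paired analysis was possible because the labels carry no shared replicate numbers. Precision is limited by 3 libraries per group and, for genes near silence, by few counts.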

Other observations

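Some genes changed alike in both lines. Glypican GPC1 fell by 1.25 on the log2 scale in each, from 73.4, 72.1 and 54.4 CPM to 26, 27.0 and 31.0 in A549 and from 19.2, 33.6 and 19.9 to 11.7, 9.44 and 9.5 in H1299, with a difference of 0.00 (SE 0.31). TBC1D8 fell by 0.95 and 1.03, ADGRB1, an adhesion receptor, by 1.86 and 1.23. ADAMTS16, a secreted metalloproteinase, rose by 2.08 and 1.18 and PLCH1, a phospholipase C, by 0.91 and 1.07. None of these differences was called (adjusted p from 0.259 to 1), which does not show that the responses are equal.

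A few genes were silent in a wild type and present in its knockout, here at most 3 counts over the silent group and at least 1 CPM in every library of the other. NR1H4, the bile acid receptor FXR, had 2 counts in A549 wild type and 231 in the knockout, 63.3-fold by CPM with a 95% counting interval from 17.3 to 526. It went from 27 to 57 counts in H1299. TCN1, a vitamin B12 carrier, had 1 and 331 counts in A549, and 13 and 9 in H1299. FAM83B had 2 and 232 counts in A549 and none in H1299. PPARGC1A, the coactivator of mitochondrial biogenesis PGC-1alpha, had no count in either wild type, 381 in H1299 knockout (4.44, 4.21 and 4.45 CPM) and 42 in A549 knockout (0.00, 1.11 and 0.224 CPM). LINC01127 had 1 and 438 counts in H1299 and none in A549. FAM83B, PPARGC1A and LINC01127 each had no count in both of 2 groups, and their difference between lines was not determined by the fit.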
